A study of Mus musculus with 6 samples.

Results

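The segment of mouse chromosome 1 from 100 to 130 Mb (mm9) held 499 of the 46475 ATAC-seq peaks in 2 lists, 1 for WT and 1 for Spen KO clone 3 mESCs. Every peak of either list that starts in the segment is a member, 143 from WT and 356 from clone 3. The segment itself was chosen by how many of its peaks lie in the clone 3 list only and how few in the WT list only, so these counts and the scores of the same 2 lists are given as a description, with no test. Both lines are haploid mouse embryonic stem cells that carry a doxycycline-inducible Xist transgene, and the knockout line also has a full deletion of Spen. The 6 sample records give WT, Spen KO clone 2 and Spen KO clone 3, each without doxycycline and after 48 hr of doxycycline at 2 ug/ml. Only the line is named in each list, and whether doxycycline was present is not given. Clone 2 was not analysed here. The knockout is therefore represented by 1 clone and each line by 1 list made from 2 technical replicates, so the loss of Spen, the clone and the preparation of the cells cannot be told apart.

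Spen is a large nuclear protein that binds RNA, including the A-repeat of Xist, and brings repressors to chromatin. ATAC-seq maps open chromatin as DNA that the Tn5 transposase can reach, and its peaks fall at promoters and at distal elements such as enhancers. In mESCs, distal open chromatin is often bound by Oct4, Sox2, Esrrb and Klf factors. The labelled cell type could not be checked from promoter peaks. They were found at 3 of 8 mESC genes in each list, Pou5f1, Sox2 and Zfp42 in WT and Pou5f1, Zfp42 and Klf4 in clone 3, while Nanog, Esrrb, Dppa5a and Tdgf1 had none in either list. Of 9 genes of other cell types, Gata4, Pax6 and Neurog2 had a promoter peak in WT and 0 of 9 in clone 3. Over all 22342 coding genes the shares were 43.9% in WT and 40.03% in clone 3, so the mESC genes had a promoter peak no more often than other genes.

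Sequences of 300 bases are shown for 1 peak of each kind found in the segment, on the plus strand of mm9, with CpG dinucleotides in capitals. The first is the highest-scoring distal peak found in clone 3 only, at chr1:117228523-117228822. The second and the next lie upstream of a coding start and inside the promoter peak, for the highest-scoring promoter peak found in clone 3 only (Gm101, now named Cfap221, chr1:121893812-121894111) and for the shared promoter peak with the largest rise in rank (Lypd1, chr1:127808792-127809091). The last is the highest-scoring peak found in WT only, at chr1:107777548-107777847. Peaks made mostly of multi-copy sequence were passed over.
Clone 3-only distal peak: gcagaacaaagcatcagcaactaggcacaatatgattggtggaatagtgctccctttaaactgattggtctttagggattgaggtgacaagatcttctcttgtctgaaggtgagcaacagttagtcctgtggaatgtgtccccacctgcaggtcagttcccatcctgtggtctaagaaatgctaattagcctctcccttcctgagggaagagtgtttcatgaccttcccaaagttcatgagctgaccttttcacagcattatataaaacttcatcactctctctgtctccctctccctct
Clone 3-only promoter peak, Gm101: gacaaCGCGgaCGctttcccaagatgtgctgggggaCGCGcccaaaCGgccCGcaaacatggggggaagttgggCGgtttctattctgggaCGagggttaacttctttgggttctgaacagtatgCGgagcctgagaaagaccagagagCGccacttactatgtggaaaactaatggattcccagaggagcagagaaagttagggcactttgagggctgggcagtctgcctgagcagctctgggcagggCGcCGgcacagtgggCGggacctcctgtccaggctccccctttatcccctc
Shared promoter peak, Lypd1: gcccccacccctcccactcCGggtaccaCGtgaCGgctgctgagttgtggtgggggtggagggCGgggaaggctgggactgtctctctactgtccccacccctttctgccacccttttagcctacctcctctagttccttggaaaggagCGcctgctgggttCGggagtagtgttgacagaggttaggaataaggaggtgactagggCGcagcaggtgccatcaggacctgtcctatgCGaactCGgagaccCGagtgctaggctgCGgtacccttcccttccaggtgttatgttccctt
WT-only peak: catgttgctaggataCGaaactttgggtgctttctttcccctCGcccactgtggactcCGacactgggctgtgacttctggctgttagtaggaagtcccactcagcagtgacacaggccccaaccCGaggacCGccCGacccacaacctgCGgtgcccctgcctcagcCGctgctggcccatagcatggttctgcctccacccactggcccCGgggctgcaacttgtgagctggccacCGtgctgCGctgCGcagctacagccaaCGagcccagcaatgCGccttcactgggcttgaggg

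The distal sequence holds 0 CpG in 300 bases and is 45.3% GC. The 2 promoter sequences hold 14 and 11 CpG and are 58.7% and 60.3% GC. The WT-only sequence holds 14 CpG and is 63.0% GC. None of the 4 holds any of the 4 motifs searched on both strands, which were ATGCAAAT (the octamer of Oct4), TCAAGGTCA (Esrrb), GGGTGTGG (Klf) and CATTGTT (Sox).

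The clone 3 list held more peaks in the segment than the WT list, and nearly every WT peak there was also in the clone 3 list. Of the 356 clone 3 peaks, 225 overlapped no WT peak by even 1 bp, or 63.2% (95% Wilson interval 58.1 to 68.0), beside 28.6% over the whole clone 3 list. Of the 143 WT peaks, 11 overlapped no clone 3 peak, or 7.69% (4.35 to 13.2), beside 25.7% over the whole WT list. In the 20 Mb before the segment, 35.0% of 197 clone 3 peaks (28.7 to 41.9) and 27.4% of 175 WT peaks were in 1 list only. In the 20 Mb after it, the shares were 24.1% of 199 clone 3 peaks (18.7 to 30.5) and 24.9% of 201 WT peaks. Intervals cover counting error only.

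The segment is poor in genes. It holds the starts of 66 coding genes, or 2.20 per Mb, compared with 8.35 before it, 7.5 after it and 8.47 over chromosomes 1 to 19 and X. WT peaks were sparse there too, at 4.77 per Mb against 8.75 and 10.1 on the 2 sides. Clone 3 peaks reached 11.9 per Mb, above the 9.85 and 9.95 on the 2 sides.

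In windows of 1 Mb, clone 3-only peaks outnumbered WT-only peaks in 30 of the 30 windows of the segment, and in 22 of the 40 windows on its 2 sides (55%). No WT-only peak started in 23 of the 30 (76.7%), and in 15 of the 40 (37.5%). In the segment, 2 windows held no WT peak at all, as did 2 of the 40. The window with the largest excess, from 120 to 121 Mb, also held the most clone 3 peaks of the segment's windows. Of its 37, 20 were clone 3-only, beside 225 of 356 in the segment, and 3 of 20 WT peaks were WT-only. It covers Tsn, Clasp1, Tcfcp2l1 (now Tfcp2l1) and Gli2. The next window, from 121 to 122 Mb, had the second largest excess. In it, 16 of 32 clone 3 peaks were clone 3-only and 1 of 17 WT peaks was WT-only. It covers Ralb, Epb4.1l5, Ptpn4 and Tmem177. Away from these, in the windows from 107 to 109 Mb, 15 of 19 and 14 of 24 clone 3 peaks were clone 3-only. They held 2 and 1 WT-only peaks, and cover Tnfrsf11a, Phlpp1, Bcl2 and Kdsr. All clone 3 peaks were clone 3-only from 126 to 127 Mb (6 of 6) and from 128 to 129 Mb (10 of 10). These are the 2 windows of the segment without a WT peak.

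**Figure D1:**
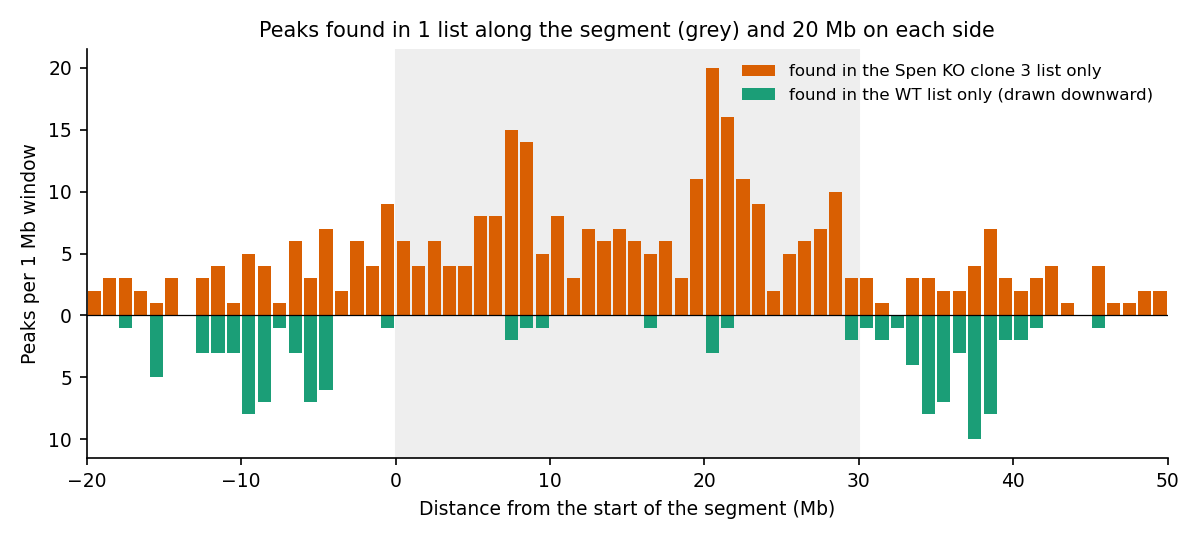
Peaks per 1 Mb window that lie only in clone 3 (orange, upward) or only in WT (green, downward), against the distance from the start of the segment in Mb; the segment is grey. Clone 3-only peaks outnumber WT-only peaks in all 30 windows of the segment, and 23 of these have no WT-only peak.

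Most of the clone 3-only peaks were distal. Promoter peaks are those that touch the 1000 bp before or the first 100 bp after a coding transcription start site (TSS), and all others are distal. Of 311 distal peaks in clone 3, 215 were in that list only, or 69.1% (63.8 to 74.0), compared with 44.7% and 30.8% on the 2 sides and 37.8% over the list. Of 45 promoter peaks, 10 were in clone 3 only, or 22.2% (12.5 to 36.3), compared with 15.4% of 65 before the segment, 7.14% of 56 after it and 12.1% over the list. Restricting each list to peaks at or above its median score left 36.1% of 180 clone 3 peaks in clone 3 only (29.5 to 43.4), compared with 9.30% and 8.41% on the 2 sides, and then 0 of 71 WT peaks were in WT only. At 3 counts of 71 this allows a share of up to 4.23%, and the upper bound of the Wilson interval is 5.13%.

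Clone 3-only peaks in the segment were mostly weak within their own list. The score of a peak is the mean of its 2 replicate values, whose scale is not named, and its percentile is its place among all scores of the same list. The 225 clone 3-only peaks had a median score of 14.8, at percentile 30.9, and 28.9% of them lay in the upper part of the list, above its median. The 6539 clone 3-only peaks elsewhere had a median score of 13.3, at percentile 22.8, and 15.8% lay above the median. Most of those in the segment were intergenic (153 of 225, 68.0%), and 55 were in introns and 17 in exons, compared with 51.7% intergenic among all clone 3-only peaks. The intergenic share was 44.9% before the segment and 62.5% after it. Shared clone 3 peaks were 51.1% intergenic in the segment and 34.8% over the list. The clone 3-only peaks of the segment had a median distance to a coding TSS of 151 kb, against 24.7 kb for those elsewhere, and 70 lay over 500 kb away. Among distal peaks of the segment, the median distance was 183 kb for those in clone 3 only and 187 kb for those in both lists.

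The strongest distal peak found in clone 3 only, chr1:117228416-117228931, is the first sequence above. It had replicate values of 37.1 and 34.8, at percentile 92.0 of the clone 3 list, and lies 353 kb from Cntnap5a, a contactin-associated adhesion protein of neurons. The next, chr1:129039994-129040519, had 26.4 and 40.8 and lies 61.3 kb from Mgat5, a glycosyltransferase that branches N-glycans. A peak at chr1:119950831-119951423 had 33.2 and 33.9, and lies 257 kb from Tsn, which encodes the RNA-binding protein translin. These 3 are intergenic. Among the 10 strongest, 3 were in introns, namely of Cntnap5a (chr1:117696002-117696596, 29.7 and 30.2), Dpp10 (chr1:125697607-125698295, 27.6 and 30.9) and Cntnap5b (chr1:102313270-102313801, 25.3 and 29.9). The other 4 were intergenic, nearest to Slco6d1, Tsn, Insig2 and Cntnap5a (chr1:100822592-100823253, chr1:119100502-119101249, chr1:123019920-123020554 and chr1:116858295-116858838).

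At 10 promoters a peak was found in clone 3 and no overlapping peak in WT. The strongest was that of Gm101, the second sequence above, with replicate values of 19.9 and 20.7. The promoter of Steap3, a ferrireductase of the iron cycle, followed with 20.9 and 18.3. Serpinb8, a clade B serpin, had 17.9 and 19.7. Dpp10, an auxiliary subunit of Kv4 potassium channels, had 16.1 and 17.8, and Nckap5 had 18.3 and 15.2. At Steap3 and Nckap5 the peak lies at an annotated start inside the gene. The Steap3 peak ends at 122162111 and the gene at 122169282, and the Nckap5 peak ends at 128389704 and the gene at 128727376, both on the minus strand. These 5 stood between percentile 43.4 and 61.6 of the clone 3 list. Bcl2, the inhibitor of apoptosis, had 14.7 and 14.7. The other 4 were weaker, with Ccdc93 at 12.9 and 13.0, Tnfrsf11a, the receptor RANK, at 13.6 and 11.5, C1ql2 at 11.4 and 8.07, and a second start of Gli2 at 7.52 and 9.29. No WT peak overlapped any of the 10.

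The 11 WT-only peaks were weak. Their percentiles ran from 1.17 to 23.6 in the WT list, with a median of 8.09. The strongest, chr1:107777527-107777869, is the last sequence above, had 16.4 and 13.2, and lies 100 kb from Tnfrsf11a. The only promoter among them was that of Tmem163, a zinc transporter, at chr1:129573923-129574586 with 10.9 and 8.46. Introns held 5, in Zcchc2 (11.5 and 11.9), Bcl2 (12.6 and 10.9), Gli2 (10.8 and 11.9, and 9.54 and 11.6) and Mgat5 (7.92 and 7.80). The other intergenic peaks were nearest to Serpinb2 (15.6 and 12.8), Cntnap5a (9.72 and 9.35), Tcfcp2l1 (7.92 and 7.62) and Inhbb (8.74 and 11.6).

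Peaks found in both lists stood higher in clone 3. Their rank shift is the percentile in the clone 3 list minus the percentile of the overlapping WT peak. Over the 131 shared clone 3 peaks of the segment, the median shift was 19.9 points (95% order-statistic interval 15.8 to 23.6), and 120 of 131 (91.6%) were above 0, compared with 49.8% of all shared peaks. The medians were -0.89 points over the 128 shared peaks before the segment and 0.96 over the 151 after it. The median percentile of these peaks, taken in each list separately, was 55.4 in WT and 82.8 in clone 3. Both replicates of a line gave like values, with medians of 21.1 and 20.01 in WT and 29.4 and 29.1 in clone 3. Rank shifts come from the same 2 lists as the counts that chose the segment, and are a description too.

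Since a high percentile leaves little room to rise, the score ratio was also taken, as the log2 of clone 3 over WT less its median over all shared peaks. The median log2 ratio in the segment was 0.59 (0.54 to 0.64), a ratio of 1.51. Over windows of 5 Mb across the segment it ran from 0.54 to 0.69, compared with -0.13 to 0.20 in the 4 such windows before it and -0.12 to 0.17 in the 4 after it. It was 0.54 for promoters (0.44 to 0.63) and 0.61 for distal peaks (0.55 to 0.72). The files hold no measure of DNA content, so how open each copy of the segment was and how many copies the cells held cannot be told apart.

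**Figure D2:**
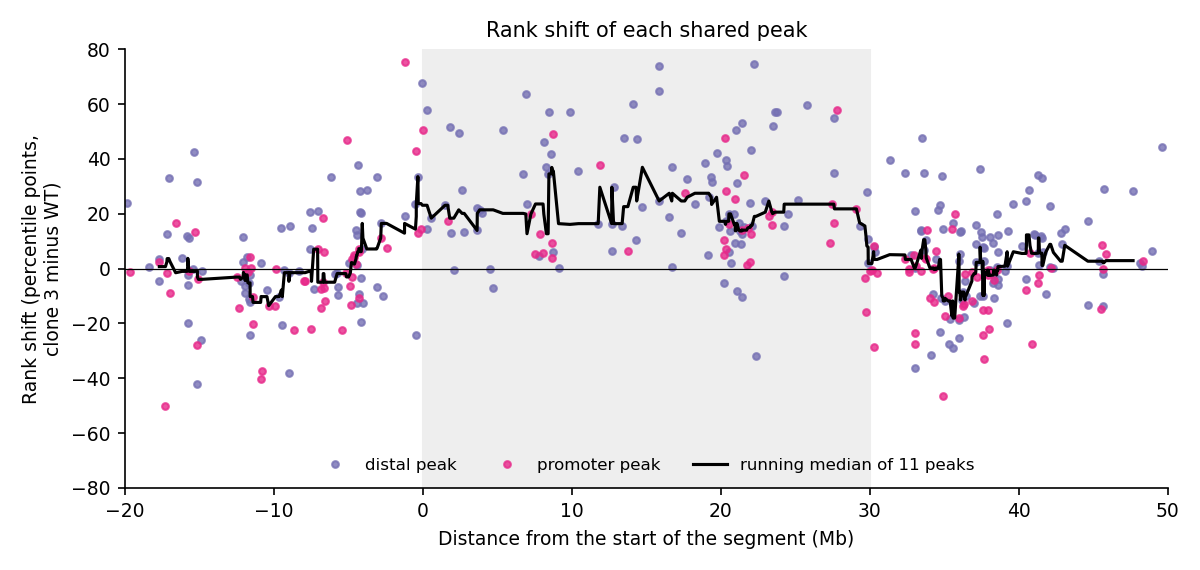
Rank shift of every shared peak, in percentile points (clone 3 minus WT) against the distance from the start of the segment in Mb, with promoter peaks in pink, distal peaks in purple, a running median of 11 peaks in black and the segment in grey. In the segment, 120 of 131 peaks are above 0 and the running median stays high until just before its end.

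Both promoter and distal peaks stood higher in clone 3. For the 35 shared promoter peaks the median shift was 14.8 points (9.49 to 19.9) and 32 were above 0, or 91.4%, compared with 37.4% of all shared promoter peaks. With replicate 1 alone it was 9.58 points, and with replicate 2 alone 15.1. For the 96 shared distal peaks it was 22.8 points (16.4 to 29.7), with 88 above 0, or 91.7%, compared with 59.6% of all shared distal peaks. The shared promoters started from a higher place in the WT list, with a median percentile of 74.8 compared with 45.5 for distal peaks. On both sides of the segment the promoter medians were below 0, at -1.53 and -1.77 points. Over all shared promoter peaks the median was also below 0, at -2.72 points, and over all shared distal peaks it was 3.02.

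**Figure D3:**
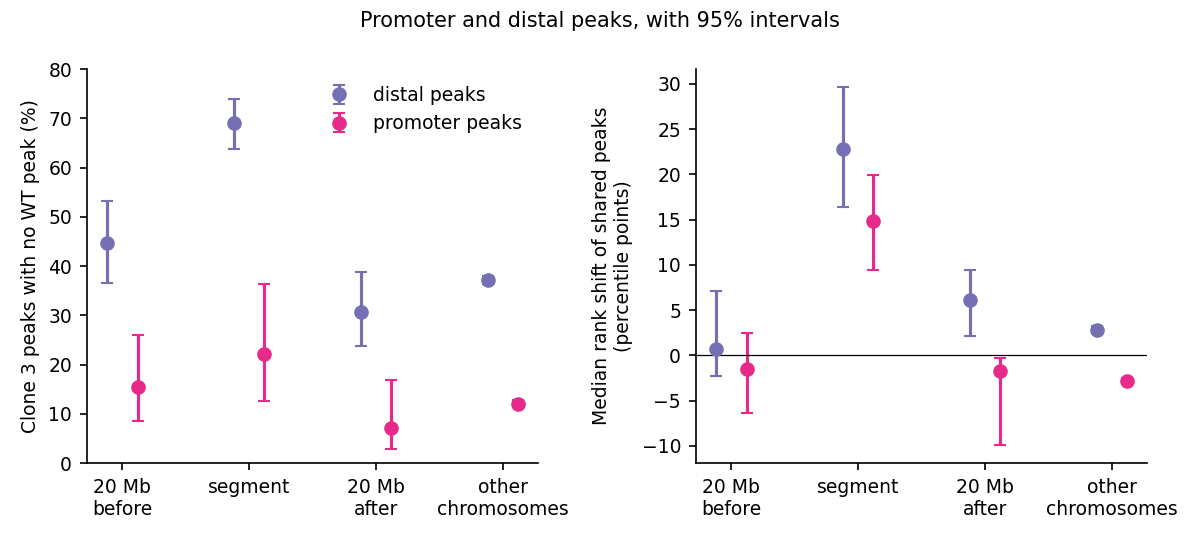
Left, share of clone 3 peaks with no WT peak in percent; right, median rank shift of shared peaks in percentile points, for distal (purple) and promoter (pink) peaks in the 20 Mb before the segment, the segment, the 20 Mb after it and the other chromosomes, with 95% intervals for counting error. The segment is highest in each, with 69.1% and 22.2% on the left and 22.8 and 14.8 points on the right.

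The largest promoter shift was at Lypd1, a Ly6-family protein that binds nicotinic receptors, whose upstream sequence is shown above. Its replicate values were 15.8 and 12.6 in WT and 25.7 and 26.0 in clone 3, a shift of 57.9 points and a log2 ratio of 1.01. Both clone 3 values lay above both WT values. Since clone 3 values run lower over all shared peaks, replicates were also compared with clone 3 centred, that is, multiplied by 1.10. Both clone 3 values then lay above both WT values at 25 of the 35 shared promoters (71.4%, 54.9 to 83.7), compared with 13% of all shared promoter peaks. As deposited it was 21 of 35, compared with 6.05%. Serpinb5, the serpin maspin, had 13.2 and 20.4 in WT and 31.2 and 26.9 in clone 3, a shift of 49.1 points. Clasp1, which binds microtubule plus ends, had 15.8 and 10.9 in WT and 15.3 and 26.7 in clone 3, a shift of 47.5 points. Its replicates overlapped between lines as deposited, and no longer did after centring. Cdh7, a type II cadherin, had 22.0 and 14.8 in WT and 34.9 and 20.6 in clone 3, which overlap only as deposited too. The remaining 6 of the 10 largest shifts were at Epb4.1l5 (34.0 points), Gm11102 (28.5), Cntnap5a (27.5), Gli2 (25.4), Slc35f5 (23.5) and Mgat5 (21.8).

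**Figure D4:**
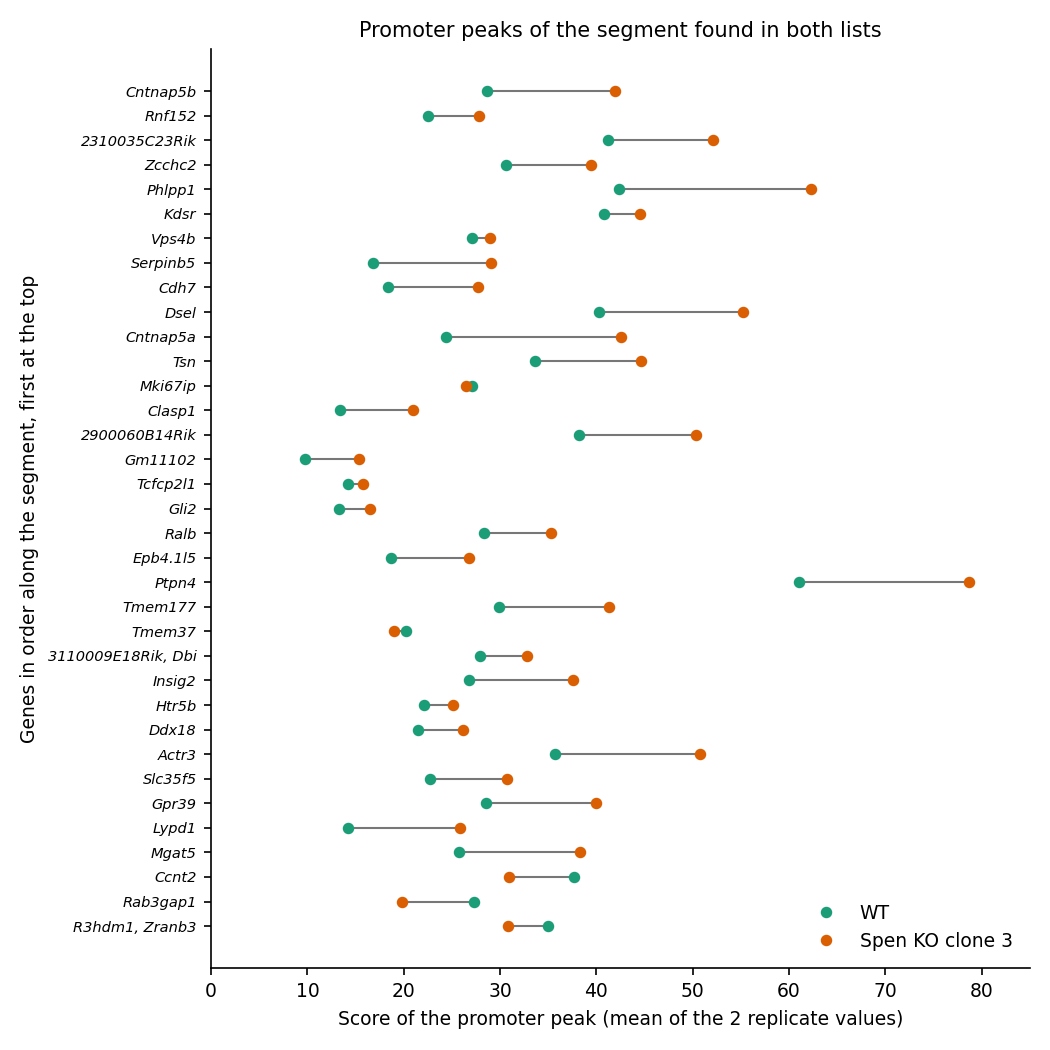
Score of the 35 shared promoter peaks of the segment in WT (green) and clone 3 (orange), as the mean of the 2 replicate values, with genes in order along the segment. As plotted, uncentred, 5 of the 35 are lower in clone 3, at Mki67ip, Tmem37 and the last 3 promoters, Ccnt2, Rab3gap1 and R3hdm1 with Zranb3.

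By gene, 37 of the 66 coding genes had a promoter peak in both lists, 9 in clone 3 only, 1 in WT only and 19 in neither. Over chromosomes 1 to 19 and X these were 8017, 927, 1788 and 11610 of 22342 genes. The 9 with a promoter peak in clone 3 only come to 13.6% of the segment's genes and to 4.15% of all genes, while WT-only promoters come to 1.52% and 8.003%. Gli2 is among the 37, since another of its starts had a peak in both lists.

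A list of 10 genes held mainly regulators of pluripotency, patterning, signalling and survival, and also the microtubule-binding Clasp1 and the RNA helicase Ddx18. Of these 10, 7 had a promoter peak in both lists and all 7 had a shift above 0, beside 32 of the 35 shared promoters of the whole segment, with a median of 19.03 points (range 5.74 to 47.5). Clasp1, described above, had the largest shift, and the next was 25.4 points at Gli2. Tcfcp2l1, a transcription factor of the naive pluripotency network, had 13.0 and 15.5 in WT and 13.9 and 17.7 in clone 3, a shift of 16.1 points with a log2 ratio of 0.29 and replicates that overlap on both scales. Gli2, the transcription factor of Hedgehog signalling, had 14.9 and 11.6 in WT and 16.03 and 16.9 in clone 3, which do not overlap. Insig2, which restrains cholesterol synthesis, had 30.8 and 22.7 in WT and 30.7 and 44.4 in clone 3, which overlap as deposited and not after centring. Phlpp1, a phosphatase of Akt, had 43.8 and 40.9 in WT and 65.5 and 59.0 in clone 3. From percentile 93.4 in WT its shift was 5.74 points, and its log2 ratio was 0.70. The small GTPase Ralb shifted by 14.0 points and Ddx18 by 20.6. Bcl2 had a promoter peak in clone 3 only, and En1, a homeobox factor of the midbrain, and Inhbb, a subunit of activin, had none in either list.

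Of 7 neuronal adhesion and synaptic genes, 3 had a promoter peak in both lists, namely Cdh7, Cntnap5a and Cntnap5b. Cntnap5a had 23.5 and 25.3 in WT and 40.5 and 44.6 in clone 3, and Cntnap5b had 31.4 and 25.9 in WT and 45.2 and 38.8 in clone 3, so neither overlapped between lines. Dpp10 and Nckap5 had a promoter peak in clone 3 only, that of Nckap5 at a start inside the gene, and the cadherins Cdh19 and Cdh20 had none. Within the bodies of these 7 genes, 23 of 33 clone 3 peaks (69.7%) and 0 of 10 WT peaks were in 1 list only, beside 63.2% of all clone 3 peaks, 69.1% of distal clone 3 peaks and 7.69% of WT peaks of the segment. The clone 3-only share was 47.2% in the bodies of the regulators, 48% in those of the basic genes and 33.3% of 3 peaks in the serpins. Nckap5, a gene of 917 kb, was the most unequal gene of the segment, with 9 clone 3 peaks, all 9 in that list only, and 0 WT peaks. Tnfrsf11a had 4 and 0, of which 4 were in clone 3 only. Clasp1 had 11 clone 3 peaks, 5 of them in that list only, Gli2 had 6 with 4 and Dpp10 had 5 with 4.

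Of 12 genes of basic cell functions, 9 had a promoter peak in both lists and all 9 had a shift above 0, again beside 32 of 35, with a median of 10.5 points (range 1.11 to 34.0). As log2 ratios these genes ran from 0.24 (Vps4b) to 0.71 (Mgat5), and the regulators from 0.29 (Tcfcp2l1) to 0.79 (Clasp1). A shift in points depends on the WT percentile, so the medians in points do not rank the 2 lists. Ptpn4, a tyrosine phosphatase, had 59.9 and 62.2 in WT and 73.4 and 84.0 in clone 3, a shift of 1.11 points with a log2 ratio of 0.51. Actr3, a subunit of the Arp2/3 complex, had 38.1 and 33.4 in WT and 52.4 and 49.2 in clone 3, with a log2 ratio of 0.65. Replicates of the lines did not overlap at either gene. Kdsr, an enzyme of sphingolipid synthesis, had 43.1 and 38.6 in WT and 37.8 and 51.3 in clone 3, and Vps4b, an ATPase of membrane scission, had 33.4 and 20.7 in WT and 24.7 and 33.2 in clone 3, so both overlapped, also after centring. Tsn shifted by 10.5 points, Tmem177 by 14.8, Dbi by 12.4, Mgat5 by 21.8 and Epb4.1l5 by 34.0. Steap3, at a start inside the gene, and Ccdc93 had a promoter peak in clone 3 only, and Pign, an enzyme of GPI anchor synthesis, had none.

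The clade B serpins form a cluster of 11 genes in the segment. A promoter peak was found at Serpinb5 in both lists, at Serpinb8 in clone 3 only, and at none of the other 9 in either list. Over the bodies of the 11 genes there were 3 clone 3 and 2 WT peaks. The paper's main ATAC-seq processing kept only uniquely mapping reads, and a re-analysis in it placed multimapping reads at random. The lists do not name which was used. With unique reads, near-identical copies such as Serpinb3a to Serpinb3d can lack peaks for that reason, which was not tested.

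The pattern did not begin at the left border used to choose the segment. Where it ended depended on the setting. The right edge by windows was 129 Mb in the main setting and 130 Mb, the border itself, with windows of 2 Mb. The 2 peaks of each list nearest the left border on its inner and outer side lay at Pam, a peptide-amidating enzyme, and near Slco6d1. Outside it, the shared promoter peak of Pam (chr1:99991424-99992672) had 18.1 and 17.9 in WT and 45.0 and 31.0 in clone 3, a shift of 50.7 points. A clone 3-only peak in a Pam intron (chr1:99983007-99983437) had 24.1 and 25.6. Inside it, the clone 3-only peak chr1:100097766-100098150 had 13.3 and 12.7, and the shared peak chr1:100263044-100263911 shifted by 57.7 points. The 2 WT peaks nearest on each side of this border were shared. Clone 3 stood above WT at the shared peaks on both sides.

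At the right border, inside it, the shared promoter peak of R3hdm1 and Zranb3, an annealing helicase of stalled forks, had 39.1 and 31.0 in WT and 32.9 and 28.8 in clone 3, a shift of -0.90 points. A clone 3-only peak in a Zranb3 intron had 10.5 and 8.21. Outside it, the promoter peak of Ubxn4 shifted by -0.70 points, with 40.1 and 29.6 in WT and 32.7 and 28.9 in clone 3. A clone 3-only peak in an intron of Lct had 10.3 and 11.3. The 2 WT peaks nearest this border on each side were shared as well.

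Windows of 1 Mb in which clone 3-only peaks exceeded WT-only peaks by 2 or more formed an unbroken run of 33 windows, from 96 to 129 Mb. This run held 383 clone 3 peaks, 243 of them in that list only, and 150 WT peaks, 10 of them in that list only. Of the 37 windows outside the run, 12 also had an excess of 2 or more, so a single window does not set the segment apart. The running median of 11 shared peaks stayed at 10 points or more from 97.2 to 129.8 Mb. With 7 peaks the run began only at 109.1 Mb, while a running median of the log2 ratio at 0.3 or more gave 97.2 to 129.7 Mb.

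Along the left edge, single peaks varied. The promoter peak of D2hgdh (chr1:95721577-95722196), an oxidising enzyme of 2-hydroxyglutarate, had a shift of -10.7 points and a log2 ratio of -0.14. The 4 distal shared peaks between 96 Mb and the next shared promoter shifted by 28.6, 33.4, -6.64 and 16.5 points, in order along the chromosome. That promoter, Fam174a (chr1:97209991-97211050), had 11.1 points and 0.25, and St8sia4, a polysialic acid synthase, had 36.6 and 43.4 in WT and 62.8 and 71.5 in clone 3, a log2 ratio of 0.89. Slco4c1, an organic anion transporter, had 13.0 and 11.4 in WT and 36.2 and 27.6 in clone 3, a shift of 75.4 points. From 96 to 100 Mb, all 7 shared promoter peaks had a shift above 0, and the 17 shared peaks had a median of 19.01 points (11.1 to 33.5). From 80 to 96 Mb, the median of 111 shared peaks was -1.53 points.

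At the right edge, single peaks varied too. The promoter peak of Mgat5 (chr1:129101278-129102168) had 27.6 and 23.9 in WT and 41.5 and 35.1 in clone 3, a log2 ratio of 0.71. Ccnt2 (chr1:129670355-129670985), a cyclin of the elongation factor P-TEFb, had 41.8 and 33.5 in WT and 29.3 and 32.5 in clone 3, a shift of -3.31 points and a log2 ratio of -0.14. Rab3gap1, of the GTPase-activating protein of Rab3, had 28.7 and 25.8 in WT and 25.9 and 13.7 in clone 3, a shift of -15.9 points. The promoters of Ccnt2, Rab3gap1 and R3hdm1 with Zranb3 were the only 3 of the 35 shared promoter peaks with a shift below 0. The other 32, which end with Mgat5, were above 0. Distal shared peaks beyond Ccnt2 were still above 0, with 27.96 points at chr1:129801334-129801811, 10.8 at chr1:129886849-129887370 and 1.85 at chr1:129897323-129898031.

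The segment was set beside the rest of the genome in 68 windows of 30 Mb on chromosomes 1 to 19 and X. The windows begin 10 Mb into each chromosome and only full ones were kept, so they cover 77.3% of the sequence, and the rest was not compared. On this grid the segment fills exactly 1 window, while other regions are cut wherever the grid falls. On this grid the segment had the highest share of clone 3-only peaks, the lowest share of WT-only peaks and the highest median shift of the 68, and was picked for the first 2. The next highest clone 3-only share, 44.0%, was on the X chromosome from 100 to 130 Mb, where the median shift was 3.18 points and 21.5% of WT peaks were in WT only. The next highest median shift, 8.05 points, was on chromosome 4 from 70 to 100 Mb, where 31.0% of clone 3 peaks were in that list only. For promoter peaks alone, the next highest median shift was 0.68 points, compared with 14.8 in the segment.

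**Figure D5:**
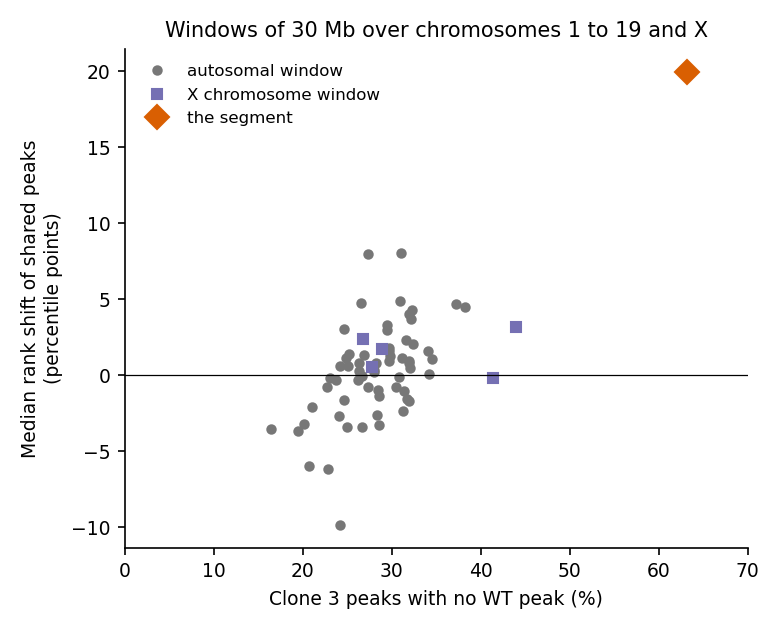
Median rank shift of shared peaks in percentile points against the share of clone 3 peaks with no WT peak in percent, for 68 windows of 30 Mb, with autosomes as grey points, the X chromosome as purple squares and the segment as an orange diamond. The segment lies apart, at 63.2% and 19.9 points, and the other windows reach at most 44.0% and 8.05 points.

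In the 300 bp around the middle of each clone 3-only distal peak of the segment, the median GC content was 50.3% and the median CpG count 3, compared with 52.7% and 5 over all clone 3-only distal peaks. Multi-copy sequence, here at least 50% of the 24-base words of the peak found 10 times or more in the genome, made up 44 of 215 (20.5%, 15.6 to 26.4), compared with 21.4% over the list. Distal peaks that both lists share were multi-copy in 17 of 96 (17.7%, 11.4 to 26.5) in the segment and in 10.4% over the list.

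Motif matches were counted in the same 300 bp. Since 311 of the 356 clone 3 peaks are distal, distal peaks were compared with distal peaks of the whole clone 3 list, in windows of the same length. The octamer ATGCAAAT occurred in 12 of the 311 (3.86%), compared with 4.41%. The Esrrb motif TCAAGGTCA occurred in 5 (1.61%), compared with 1.03%. The Klf motif GGGTGTGG occurred in 15 (4.82%), compared with 4.98%, and the Sox motif CATTGTT also in 15 (4.82%), compared with 5.10%. Each list-wide share lies within the 95% interval of the segment's share. A match is a run of letters, not a measured site.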

How the data were processed

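ATAC-seq peaks of WT and Spen KO clone 3 haploid mESCs were read from the 2 lists that the authors deposited. Before that, the authors' main processing used CutAdapt for trimming, Bowtie2 for alignment to mm9 and Picard against duplicates, with unique proper pairs kept. Peaks came from MACS2 on both technical replicates and had to pass IDR (largest value here 0.05). Each deposited peak gives 2 replicate values on a scale that is not named, used here as ranks within a list or as centred ratios, and never as reads. Where values of both lines stand side by side they are as deposited, and over all shared peaks clone 3 scores differed from WT by a median of -0.14 on the log2 scale; where replicates are compared between lines, clone 3 values were also multiplied by 1.10 to remove this. Read depth is therefore unknown, and a peak near the calling threshold can miss a list. If the lists hold unique reads only, the loss of repeated sequence affects both.

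Other sequences than chromosomes 1 to 19 and X were dropped (22698 WT and 23656 clone 3 peaks kept, 55 and 66 dropped). Genes, UTRs and starts came from GENCODE vM1 on NCBIM37, which is mm9, and current symbols from a RefSeq table. Shared peaks overlapped by 1 bp or more. Wilson and order-statistic intervals (95%) were computed with Python 3.11.15, numpy 2.4.6, pandas 2.3.3 and scipy 1.17.1, and the functions were checked on simulated data. There is 1 list per line, so no test between lines was possible. Column-wise, 0 columns of other samples were set aside.

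The segment, gene lists and named genes were chosen with earlier results of these data known. Named were list members, promoters in 1 list only, the 10 largest promoter shifts and those below 0, the 10 and 5 strongest distal and promoter clone 3-only peaks, every WT-only peak, the 2 peaks nearest each border on each side, and the 5 genes with most clone 3-only peaks. Genes at the edges of the pattern (D2hgdh, Fam174a, St8sia4, Slco4c1, Ccnt2, Rab3gap1) and the genes named for the windows of 1 Mb were added after their values were seen.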

Additional observations from a re-analysis of the deposited data

How the results depend on the processing

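Of 108 values recomputed under other settings on the scale of the main value, 96 stayed close to it (shares and medians within its 95% interval, edges less than 1 Mb away, a count within 1.5 times), and 12 moved further; 5 more are on the log2 scale and cannot be set against an interval in points. Some of the 96 are the main value again. Requiring an overlap of at least 50% of the shorter peak changed none of its values. Leaving out multi-copy peaks could not change which promoter peaks of the segment were counted, since 0 of 45 in clone 3 and 0 of 36 in WT were multi-copy. No median shift of the segment changed sign. The median shifts beside it, whose intervals include 0, did so in 3 of 8 alternatives before the segment (-1.72 to 1.91 points, main value -0.89) and in 2 of 8 after it (-0.62 to 1.87, main value 0.96). Keeping peaks at or above the median score of their list lowered the clone 3-only share to 36.1% in the segment, 9.30% before it and 8.41% after it, and to 8.57% for promoter and 42.8% for distal peaks of the segment; the WT-only shares became 0%, 3.90% and 6.32%. This setting removes weak peaks from the counted list only. On the log2 ratio scale the median shifts were 0.59 in the segment, -0.0016 before it, 0.062 after it, 0.54 for promoter and 0.61 for distal peaks. With only shared peaks at or above the median WT score, chosen after seeing the data, the medians were 14.0 points in the segment and 15.5 for distal peaks. Windows of 2 Mb put the right edge at 130 Mb, and a running median of 7 peaks put the left edge at 109.1 Mb; the cause was not tested. With 1 replicate, the median shift was 18.2 to 20.3 points in the segment, 0.18 to 0.34 before it, 1.38 to 1.87 after it, 9.58 to 15.1 for promoter and 23.0 to 24.6 for distal peaks. The run of 1 Mb windows as the span, the log2 edges and the centring of replicate values were also chosen after seeing the data. No paired analysis was possible because each line has 1 list, in which its 2 replicates are combined. Read depth is unknown, and each line has 1 list, a limit that no interval covers.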
